A study of Oryza sativa with 6 samples.

Results

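Subtilases (Peptidase S8) and serine carboxypeptidases (Peptidase S10) are the serine peptidase classes described here, in rice root tips of the wild type J10 and of the mutant lad. Members were all genes of the deposited count table whose protein-domain description names either class, which gave 125 of 56962 genes, 66 of class S8 and 59 of class S10. Of the S8 members, 61 are described by the peptidase domain and 5 only by the propeptide, the inhibitory stretch at the start of a subtilase precursor. A separate family column of the same table names the matching peptidase family for 60 of the 66 S8 members and 58 of the 59 S10 members. The S8 exceptions are the 5 propeptide genes and LOC_Os04g03796, and the S10 exception, LOC_Os06g32740, is listed there as a transposase.

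RNA was taken from the last 0.5 cm of roots of Oryza sativa seedlings grown at 25°C for 6 days after sprouting, in 3 libraries of wild type J10 and 3 of the mutant, called lad or sr1 in the labels. The labels give no mutated locus, no agent and no further allele, and do not say whether the 3 samples of a genotype came from separate plants, so p-values measure the spread between these samples, which may be technical. The series title names cell division and tracheary elements, the water-conducting cells of xylem, as the subject of study.

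Subtilases are made as inactive precursors. An inner propeptide folds the enzyme, blocks its active site and is then cut away. Most plant subtilases are secreted to the cell wall, where members studied in Arabidopsis cut peptide hormone precursors and the pro-regions of pectin methylesterases, enzymes that modify wall pectin. Serine carboxypeptidases remove residues from the C-terminal end of proteins, many of them in the vacuole, and some plant relatives have become acyltransferases that build secondary metabolites from glucose esters.

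Library totals ran from 16405022 to 20693114 counts. Of 3 loci listed as green-leaf markers 1 was at 0 in all libraries, and the summed level of all 3 reached at most 2.69 CPM (counts scaled to a common library size and composition) in the mutant and 0.216 CPM in the wild type. Nearly all of this sum came from LOC_Os01g41710. That locus was itself called higher in the mutant, with a log2 fold change of 4.49 (adjusted p = 0.00212, edgeR quasi-likelihood test). The root marker loci were chosen from general knowledge of rice, and the deposited descriptions give domains but no cell type, so what tissue they report is uncertain. The 2 loci listed for endodermis and exodermis, described as an aquaporin and a citrate transporter, summed to 214 to 421 CPM in the wild type and 735 to 942 CPM in the mutant. The 3 loci listed for the stem cell niche and ground tissue summed to 96.3 to 109 CPM in the wild type and 61.2 to 80.5 CPM in the mutant. LOC_Os07g39820, the largest part of that sum, was called lower (log2 fold change -0.52), as was LOC_Os01g63510 (-1.38). LOC_Os11g03110 was not called (-0.31). The 3 cellulose synthase loci listed for xylem walls summed to 171 CPM in wild type replicate 2 and 439 CPM in wild type replicate 1, a range that contains the 216 to 333 CPM of the mutant. In such whole-tip samples, fewer cells of a type and less RNA per cell cannot be told apart, and the part of these tissue differences in the results that follow was not tested.

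Calls leaned to lower levels in one class and to higher levels in the other. Among S8 members 13 fell and 5 rose, and among S10 members 17 rose and 5 fell. With library totals as the only scaling the S8 balance was smaller, with 9 lower and 6 higher. That scaling moved the calls over all 22624 tested genes the same way. They went from 4585 lower and 5644 higher to 3647 lower and 6223 higher. Over all 22624 genes tested, 45.2% were called, 24.9% higher and 20.3% lower (edgeR quasi-likelihood test, adjusted p below 0.05). Members with enough counts to be tested numbered 35 in each class. The S8 calls were 14.3% of these higher and 37.1% lower, and the S10 calls 48.6% higher and 14.3% lower. For a few members only 1 genotype reached the limit of the low-count filter in all its libraries, a condition that favours a difference. That genotype was the wild type for 2 S8 members and 1 S10 member, and the mutant for 3 S10 members. In some of these members, libraries of the other genotype reached the limit as well. A further S8 member passed through a mix of libraries of both genotypes and was not called. Of the 32 S8 members that reached the limit in all libraries of both genotypes, 11 fell and 5 rose. Of 31 such S10 members 14 rose and 4 fell. Shares of all tested genes under this condition were not computed. Libraries of the genotypes did not overlap for 7 tested S8 members on the higher side and 17 on the lower side, and for 17 and 6 S10 members. Over all tested genes such separation was found for 56.8%, of which 30.2% of the tested genes were higher and 26.6% lower. All 18 called S8 members and all 22 called S10 members were separated, so separation adds nothing to a call. It was also required of the genes named below for the size of their change.

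**Figure D1:**
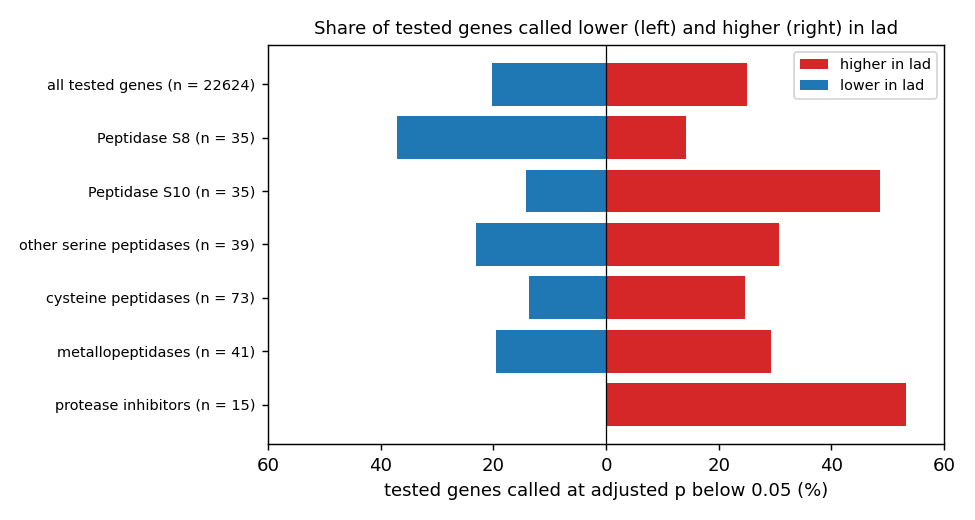
Share of tested genes called higher (right) or lower (left) in the mutant, in percent on the horizontal axis, for all genes, the S8 and S10 classes and 4 other lists, with the number tested beside each name. The S8 bar reaches 37.1% on the lower side and the S10 bar 48.6% on the higher side, against 20.3% and 24.9% of all genes.

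The sizes of change differed too. The median log2 fold change (mutant minus wild type) was -0.34 over the tested S8 members and 0.17 over the tested S10 members, against 0.02 over all tested genes. The next S10 value above the median was 0.37, and the median lay between 0.21 and 0.32 when any 1 of the 6 libraries was left out. Called changes reached 2-fold in 4 S8 members that rose and 6 that fell, and in 13 S10 members that rose and 2 that fell. Over all tested genes 15.2% rose and 4.73% fell by that much, so the S8 increases and the S10 decreases lay near the background. Called changes reached 8-fold upwards in 5 S10 members and 0 S8 members, against 4.98% of all tested genes. For 2 of the 5, only the mutant reached the limit of the low-count filter in all its libraries. The summed level of all S8 members went from 1148, 1129 and 1133 CPM in wild type replicates 1, 2 and 3 to 933, 968 and 888 CPM in mutant replicates 1, 2 and 3. That of the S10 members went from 678, 642 and 647 CPM to 863, 786 and 829 CPM. Neither sum overlapped between genotypes, and each is a description with no test. All values by library below are given in the order of replicates 1, 2 and 3.

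**Figure D2:**
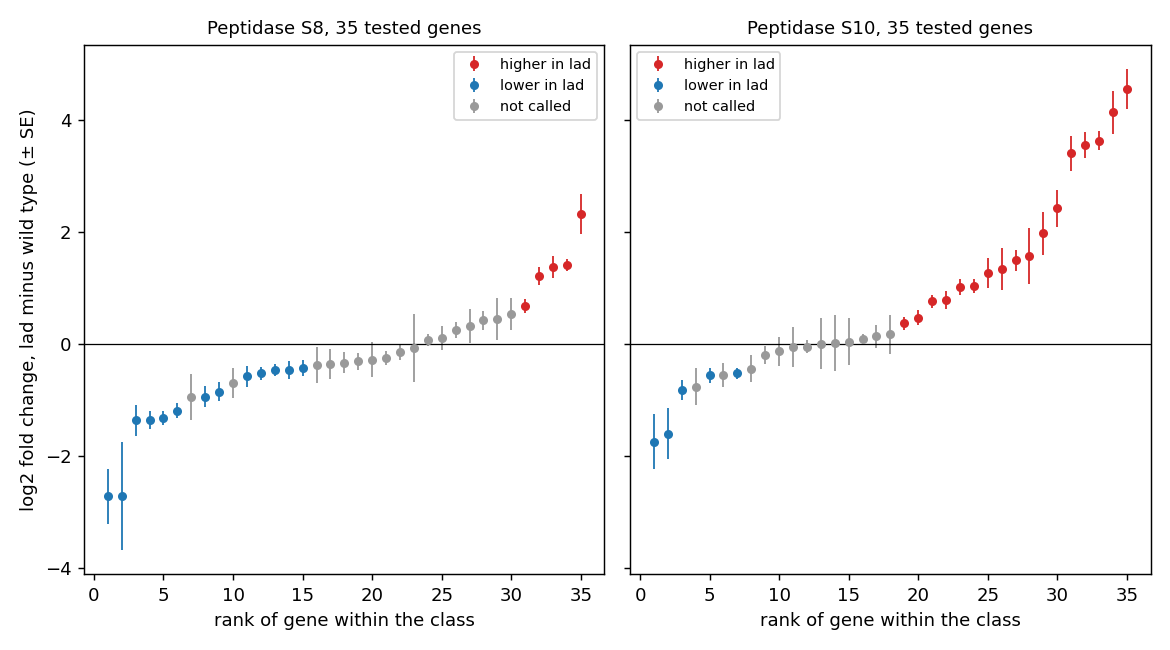
Log2 fold change of each tested member (points) with its standard error (bars), ranked within class S8 (left) and class S10 (right) and coloured by call. The S8 values run from -2.71 to 2.32 and the S10 values from -1.74 to 4.55.

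The balance of calls was similar at middle and high levels. Of the 12 S8 members with a mean above 20 CPM over all libraries 6 fell and 2 rose, and of the 12 between 5 and 20 CPM 5 fell and 2 rose. Of the 11 S10 members above 20 CPM 6 rose and 2 fell, and of the 11 between 5 and 20 CPM 7 rose and 1 fell. Among all genes above 20 CPM 23.2% were higher and 29.1% lower, and between 5 and 20 CPM 25.4% were higher and 18.0% lower. Below 5 CPM the balance was weaker. Of 11 S8 members there 2 fell and 1 rose, and of 13 S10 members 4 rose and 2 fell, with an S10 median log2 change of 0.01. Among all genes below 5 CPM 27.3% were higher and 8.77% lower. Tested members without a call that lay below 5 CPM numbered 8 of 17 in class S8 and 7 of 13 in class S10.

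The S8 transcripts with the highest counts were those of LOC_Os02g44520, LOC_Os03g02750, LOC_Os03g40830 and LOC_Os01g56320, which with their 4600, 2711, 3246 and 3214 bases carried 46.2% of the summed S8 level. Per kilobase of deposited gene length, the wild type order of level was LOC_Os03g02750 at 54.4, LOC_Os01g56320 at 40.4, LOC_Os02g44520 at 39.5 and LOC_Os03g40830 at 34.2 CPM per kb. In the mutant LOC_Os02g44520 stood at 41.4 CPM per kb, and the other 3 at 23.9, 16.1 and 23.7 CPM per kb for LOC_Os03g02750, LOC_Os01g56320 and LOC_Os03g40830. LOC_Os02g44520 (chromosome 2, 26952856 to 26970266, plus strand) was at 180.3, 182 and 182 CPM in the wild type and 202, 178 and 192 CPM in the mutant. Its genotypes overlapped and its log2 change was 0.07 ± 0.10 (SE, adjusted p = 0.594).

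The other 3 abundant subtilase genes fell. LOC_Os03g02750 (chromosome 3, 1033961 to 1036671, minus strand) was at 157, 139 and 146 CPM in the wild type and 57.9, 77.8 and 58.4 CPM in the mutant. Every mutant library lay below every wild type library, with a log2 change of -1.19 ± 0.13 (adjusted p = 4.7e-05). LOC_Os01g56320 (chromosome 1, 32450869 to 32456576, plus strand) fell from 124, 142 and 124 CPM to 53.3, 57.6 and 44.6 CPM, a log2 change of -1.32 ± 0.12 (adjusted p = 1.29e-05). LOC_Os03g40830 (chromosome 3, 22702919 to 22706164, plus strand) fell less, from 114, 101 and 118 CPM to 68.5, 88.8 and 73.7 CPM (-0.53 ± 0.12, adjusted p = 0.00541). The groups of these genes did not overlap, which holds in the same direction for 26.6% of all tested genes.

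Further decreases came in subtilase genes of middle level. LOC_Os10g25450 (chromosome 10, 13160291 to 13163994, plus strand) fell from 70.2, 69.1 and 66.1 CPM to 27.5, 33.3 and 19.98 CPM, a log2 change of -1.35 ± 0.16 (adjusted p = 8.39e-05). LOC_Os05g36010 (chromosome 5, 21325499 to 21328295, minus strand) fell from 16.6, 11.97 and 18.1 CPM to 7.89, 6.83 and 3.52 CPM (-1.36 ± 0.28, adjusted p = 0.00269). Both sets of mutant values lay below the lowest wild type value, which the naming rule required, with mutant replicate 3 the lowest of all. LOC_Os09g26920 (chromosome 9, 16356707 to 16360010, plus strand) went from 25.3, 23.3 and 25.6 CPM to 14.7, 15.98 and 10.6 CPM (-0.85 ± 0.17, adjusted p = 0.002). LOC_Os06g41880 (chromosome 6, 25118149 to 25126142, plus strand) went from 11.1, 11.1 and 10.1 CPM to 5.67, 6.47 and 4.71 CPM (-0.94 ± 0.19, adjusted p = 0.00222). These 7 named decreases kept their call when any 1 library was left out.

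The other 6 S8 decreases fall outside the rule that set the genes named and were added after their values were seen. LOC_Os03g13930 fell from 44.7 ± 2.89 to 32.2 ± 2.11 CPM (mean ± SD, n = 3 libraries, here and for values in this form below) and kept its call throughout. The scarce LOC_Os01g64860 fell from 1.6 ± 0.354 to 0.237 ± 0.0742 CPM, with 33, 23 and 35 counts in the wild type and 3, 4 and 6 in the mutant. For it, as for LOC_Os03g04950, only the wild type reached the limit of the low-count filter in all its libraries. The calls of the remaining 4 were less stable, and with library totals as the only scaling none of them held. The adjusted p was then 0.0755 for LOC_Os03g55350, 0.0557 for LOC_Os10g38080, 0.0861 for LOC_Os08g35090 and 0.0532 for LOC_Os03g04950. LOC_Os03g55350 went from 76.1 ± 5.3 to 56.3 ± 10.7 CPM, and its log2 change of -0.43 became -0.28 without mutant replicate 3 (adjusted p = 0.0794). Omitting wild type replicate 2 (0.0577) or 3 (0.0925) also ended its call. LOC_Os10g38080 went from 15.8 ± 1.47 to 10.6 ± 2.39 CPM (adjusted p = 0.0269) and lost its call without wild type replicate 2 (0.0559) or 3 (0.0893) or mutant replicate 1 (0.0959) or 3 (0.0944).

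LOC_Os08g35090 went from 18.6 ± 1.05 to 13.5 ± 2.31 CPM (adjusted p = 0.0349) and held its call only without mutant replicate 2 among the 6 libraries left out in turn, with adjusted p from 0.0521 to 0.113 in the other 5 cases. LOC_Os03g04950 had 13, 35 and 17 counts in the wild type and 0, 9 and 0 in the mutant (adjusted p = 0.0415). All its mutant counts lay in mutant replicate 2, and over all 3 mutant libraries the fitted change was 6.54-fold. Against a floor of 3 counts over the other 2 mutant libraries, a choice made with the counts known, it was at least 14.4-fold lower there. Its log2 change of -2.71 was -2.12 without mutant replicate 1 and -2.10 without mutant replicate 3 (adjusted p = 0.133 and 0.132), and omitting wild type replicate 2 (0.132) or 3 (0.0777) ended its call too.

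The smallest adjusted p of class S8 belonged to a gene with no peptidase domain in its description. LOC_Os05g35740 (chromosome 5, 21214814 to 21216932, minus strand, 1032 bases) carries the propeptide/inhibitor I9 description alone. It was at 31.5, 27.8 and 30.7 CPM in the wild type and 76.5, 75.7 and 86.3 CPM in the mutant, with no overlap and a log2 change of 1.41 ± 0.11 (adjusted p = 3.88e-06). Per kilobase it rose from 29.1 to 77.04 CPM per kb, above every peptidase-domain member of the class in the mutant. The only other propeptide gene with enough counts, LOC_Os07g25690, was at 2.34 ± 0.917 and 1.21 ± 0.347 CPM and did not pass (adjusted p = 0.0802). The other 3 had at most 2 counts in any library.

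With the peptidase domain, 4 S8 genes rose. LOC_Os01g58240 (chromosome 1, 33659782 to 33672538, plus strand) rose from 8.27, 6.48 and 6.69 CPM to 21.6, 14.6 and 19.5 CPM (1.37 ± 0.19, adjusted p = 0.000229). LOC_Os09g30250 (chromosome 9, 18414043 to 18422769, plus strand) rose from 9.66, 7.16 and 7.77 CPM to 17.9, 18.2 and 20.8 CPM (1.21 ± 0.17, adjusted p = 0.000217). LOC_Os04g35140 (chromosome 4, 21358864 to 21362109, plus strand), the most abundant of them, rose from 37.7, 28.6 and 30.4 CPM to 47.4, 51.1 and 55.6 CPM (0.67 ± 0.13, adjusted p = 0.00175). In each, the lowest mutant library exceeded the highest wild type library, which the naming rule required. LOC_Os02g44590, outside the naming rule and added with its values known, was the last of them. It went from 0.717 ± 0.0681 to 3.6 ± 0.904 CPM, the largest increase of the class on the log2 scale (2.32 ± 0.35). The calls of all 5 higher S8 genes held with each library left out.

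**Figure D3:**
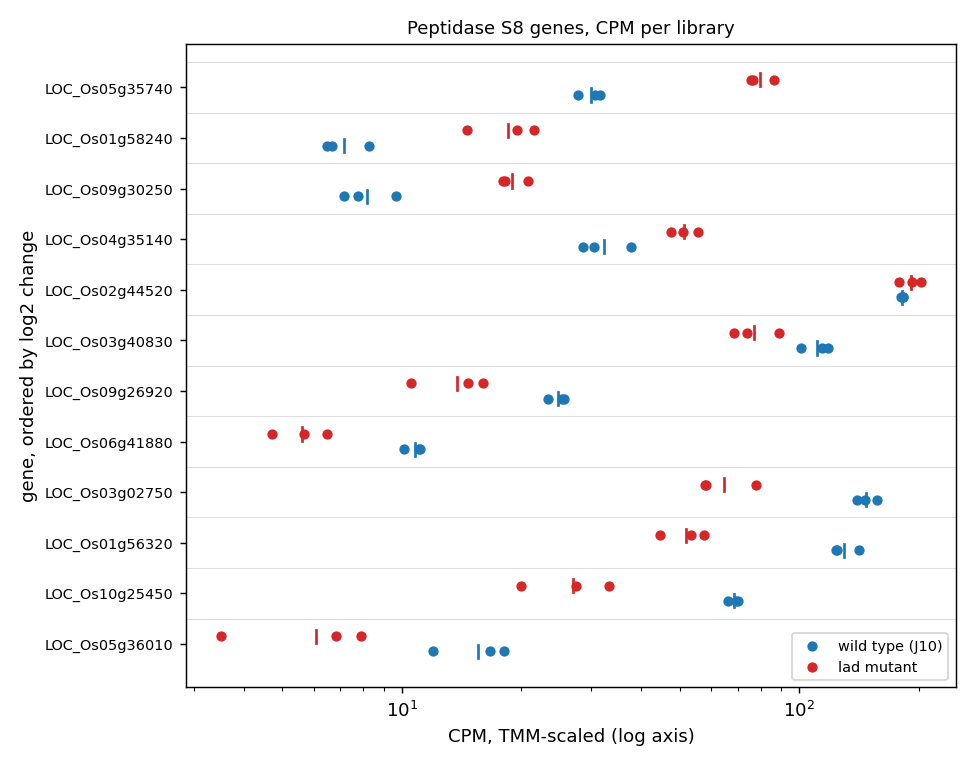
CPM (log axis) of the 12 S8 genes named by rule in each of the 3 wild type (blue) and 3 mutant (red) libraries, with short vertical bars at the means, ordered by log2 change. In 11 of the 12 the genotypes do not overlap, which the naming rule required of those named for the size of their change. LOC_Os02g44520 stays between 178 and 202 CPM in both.

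Among serine carboxypeptidases the transcripts with the most counts were those of LOC_Os02g46260, LOC_Os07g29620, LOC_Os07g46350 and LOC_Os03g52040, which carried 52.4% of the summed S10 level. LOC_Os02g46260 (chromosome 2, 28212066 to 28217277, plus strand), at 71.7 CPM per kb the highest of either class in the wild type, had 182, 175 and 175 CPM in the wild type and 194, 159 and 162 CPM in the mutant. Its mutant values straddled those of the wild type, and its log2 change was -0.05 ± 0.11 (adjusted p = 0.759), of the opposite sign with library totals as the only scaling (0.04). LOC_Os03g52040 (chromosome 3, 29858905 to 29864596, plus strand) had 51.7, 49.2 and 48.7 CPM against 56.3, 49.1 and 52.9 CPM, also with overlap (0.08 ± 0.10, adjusted p = 0.546).

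Both abundant genes on chromosome 7 rose. LOC_Os07g46350 (27638815 to 27643797, minus strand) rose from 49.5, 33.8 and 42.1 CPM to 84.95, 62.2 and 67.7 CPM (0.78 ± 0.16, adjusted p = 0.0026). LOC_Os07g29620 (17410023 to 17413849, minus strand) rose from 90.2, 96.5 and 91.8 CPM to 104, 124 and 131 CPM (0.37 ± 0.11, adjusted p = 0.0214). The groups of both were apart, but the call of LOC_Os07g29620 did not hold when a library was omitted in 4 of 6 cases, which were wild type replicate 1 (0.0611) or 3 (0.119) and mutant replicate 2 (0.0573) or 3 (0.0802).

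The S10 genes with the largest increases were scarce in the wild type. LOC_Os05g50580 (chromosome 5, 29000107 to 29002044, plus strand) went from 0.308, 0.47 and 0.486 CPM to 11.7, 6.47 and 11.8 CPM, a log2 change of 4.55 ± 0.36 (adjusted p = 4.35e-06). LOC_Os10g01134 (chromosome 10, 110138 to 116454, minus strand) went from 0.462, 1.1 and 0.54 CPM to 7.89, 16.3 and 12.99 CPM (4.13 ± 0.38, adjusted p = 1.36e-05). In both, only the mutant reached the limit of the low-count filter in all its libraries. Wild type replicate 2 of LOC_Os10g01134 also reached it. LOC_Os11g24510 (chromosome 11, 13971645 to 13979649, minus strand) went from 3.29, 2.35 and 2.48 CPM to 33.9, 31.7 and 34.9 CPM, with 3.63 ± 0.17 and the smallest adjusted p of all members, 2.29e-07. Per kilobase it reached 18.5 CPM per kb in the mutant from 1.5 in the wild type.

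LOC_Os05g50600 (chromosome 5, 29004107 to 29005849, plus strand) rose from 1.18, 1.05 and 0.918 CPM to 11.997, 10.99 and 14.0 CPM (3.55 ± 0.23, adjusted p = 1.44e-06). LOC_Os01g43890 (chromosome 1, 25144495 to 25146560, plus strand) rose from 1.03, 1.52 and 1.46 CPM to 8.86, 15.7 and 17.9 CPM (3.40 ± 0.31, adjusted p = 1.22e-05). LOC_Os12g15470 (chromosome 12, 8829523 to 8834630, minus strand) rose from 4.47, 3.82 and 5.02 CPM to 11.997, 11.05 and 14.3 CPM (1.49 ± 0.20, adjusted p = 0.000154). These 6 genes had the largest increases among called members with at least 5 CPM in the mutant. The naming rule required that their genotypes did not overlap. Each call held with every library left out.

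The remaining 9 higher S10 genes fall outside the rule for single genes and were named with their values known. LOC_Os06g08720 rose from 37.9 ± 5.55 to 64.1 ± 3.77 CPM, LOC_Os03g27590 from 17.8 ± 0.951 to 36.4 ± 4.86 CPM and LOC_Os01g06490 from 15.1 ± 1.01 to 30.5 ± 3.81 CPM. LOC_Os12g39170 rose from 3.25 ± 0.935 to 7.78 ± 1.23 CPM, LOC_Os11g42390 from 1.52 ± 0.714 to 3.86 ± 0.372 CPM and LOC_Os10g01110 from 0.63 ± 0.0444 to 3.4 ± 0.157 CPM. LOC_Os10g01110 (chromosome 10, 100327 to 103441) lies beside LOC_Os10g01134, so both carboxypeptidase genes of that stretch rose. LOC_Os04g25560 rose from 16.9 ± 1.06 to 23.3 ± 1.68 CPM, a call lost without mutant replicate 1 (adjusted p = 0.0543).

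LOC_Os01g22980 rose from 0.821 ± 0.292 to 3.24 ± 0.661 CPM and overlaps another member, LOC_Os01g22954, on the opposite strand. LOC_Os01g22954 had 3.88 ± 0.794 and 4.38 ± 2.13 CPM (adjusted p = 0.723). The sources used here do not state whether counting used strand, and without it reads from their shared end cannot be told apart. LOC_Os02g55130, at 0.331 ± 0.0722 and 0.994 ± 0.296 CPM, passed the filter through the mutant alone and overlaps LOC_Os02g55134, which had at most 5 counts in a library, on the opposite strand. The adjusted p of 0.0257 became 0.0814 and 0.109 on omission of wild type replicate 2 or 3, 0.0981 and 0.0864 on omission of mutant replicate 1 or 3, 0.0508 with DESeq2, 0.0515 with the replicate number as a block and 0.0648 with no filter beyond 1 count.

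Decreases among the S10 genes were fewer and mostly smaller. LOC_Os02g02320 (chromosome 2, 767270 to 772138, minus strand) fell from 54.1, 56.4 and 52.5 CPM to 40.6, 37.2 and 35.6 CPM (-0.52 ± 0.10, adjusted p = 0.00205). LOC_Os11g31980 (chromosome 11, 18831750 to 18835602, plus strand) fell from 27.7, 30.6 and 27.5 CPM to 21.2, 20.3 and 16.7 CPM (-0.56 ± 0.13, adjusted p = 0.00607). LOC_Os04g44410 (chromosome 4, 26287757 to 26292362, minus strand) fell from 15.3, 17.4 and 19.7 CPM to 8.43, 9.32 and 11.8 CPM (-0.82 ± 0.18, adjusted p = 0.00352). None of these overlapped between genotypes, which the naming rule required.

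The largest S10 decrease was in LOC_Os05g06660 (chromosome 5, 3439210 to 3443769, minus strand), a gene listed by identifier whatever its value. It had 5.34, 5.44 and 4.16 CPM in the wild type and 2.81, 1.19 and 0.466 CPM in the mutant, a log2 change of -1.74 ± 0.49 (adjusted p = 0.014). Only the wild type reached the limit of the low-count filter in all its libraries. The mutant libraries were apart from the wild type but spread widely, and without mutant replicate 1 the log2 change was -2.60. LOC_Os04g32540, named after its values were seen, fell from 2.34 ± 0.928 to 0.765 ± 0.274 CPM (adjusted p = 0.0151), a call that did not hold without wild type replicate 2 (0.0553) or 3 (0.0572) or mutant replicate 3 (0.0598).

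**Figure D4:**
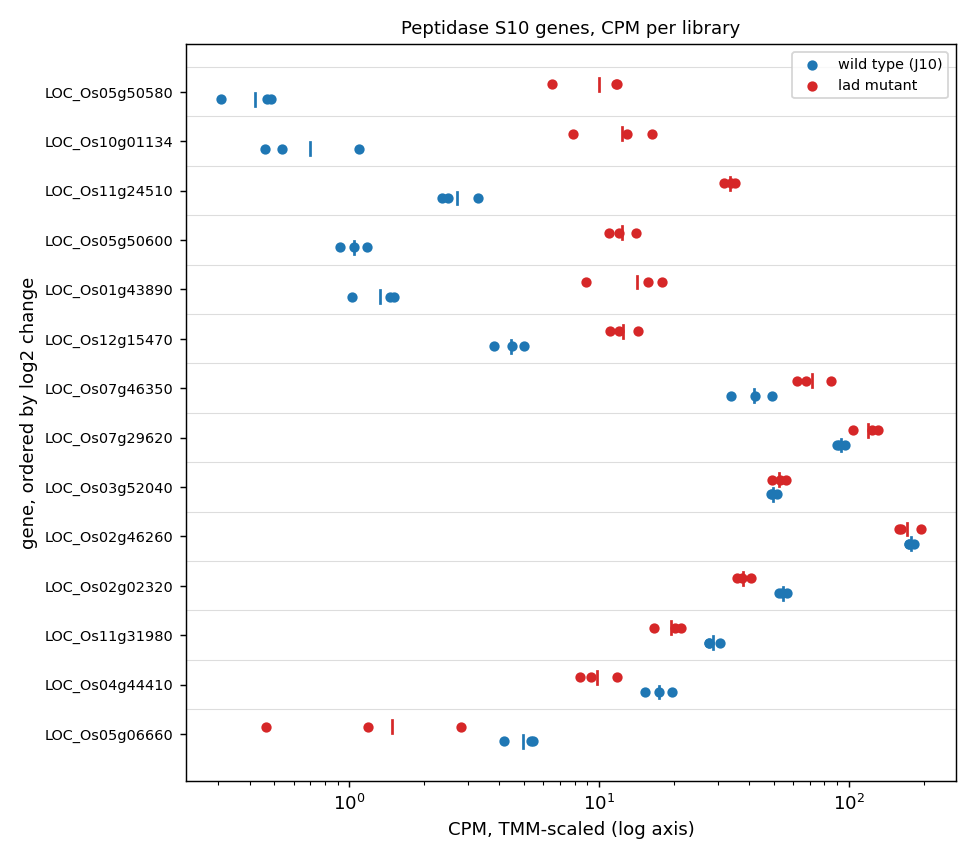
CPM (log axis) of the 14 S10 genes named by rule in each of the 3 wild type (blue) and 3 mutant (red) libraries, with short vertical bars at the means, ordered by log2 change. The 6 genes at the top were at or below 5.02 CPM in every wild type library and at or above 6.47 CPM in every mutant library.

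Neighbouring members differed in level and in call. Taking as an array 3 or more members of a class with neighbours no more than 50000 bases apart, each class formed 5 arrays, which held 21 S8 and 17 S10 members. Only 5 of these S8 and 7 of these S10 members had enough counts to be tested, against 30 of 45 and 28 of 42 outside arrays. In the array on chromosome 5 (28995973 to 29005849) LOC_Os05g50580 and LOC_Os05g50600 rose as given above, while LOC_Os05g50570 had 1.13, 1.1 and 1.62 CPM in the wild type and 0.757, 1.01 and 2.07 CPM in the mutant (adjusted p = 0.996), with overlap. In the chromosome 3 array from 15763402 to 15829107, LOC_Os03g27590 rose, LOC_Os03g27480 had 3.34 ± 2.29 and 3.39 ± 1.85 CPM, and the other 2 members were at 0 in all libraries.

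The S8 array on chromosome 1 (33659782 to 33696746) held 4 members, of which LOC_Os01g58240 rose. LOC_Os01g58280 had 5.35 ± 0.683 and 3.29 ± 0.904 CPM (adjusted p = 0.0527) and LOC_Os01g58290 had 8.26 ± 0.644 and 11.1 ± 0.96 CPM (adjusted p = 0.0603), neither passing. Both lie near the threshold. LOC_Os01g58280 passed with RLE factors (0.0483), upper-quartile factors (0.0395), DESeq2 (0.0428) or the replicate block (0.0382) and without mutant replicate 1 (0.0273), and LOC_Os01g58290 passed with library totals (0.037). LOC_Os01g58290 overlaps LOC_Os01g58300 on the opposite strand, and whether counting used strand is not known. LOC_Os01g58270 had at most 3 counts in a library. The array on chromosome 2 from 32976864 to 33048003 held 6 members, of which LOC_Os02g53860 was well expressed, with 55.8 ± 2.32 and 66.0 ± 13.1 CPM, and 4 were at 0 throughout. LOC_Os02g53860 did not pass (adjusted p = 0.183) but did without mutant replicate 3 (0.0344). Counts of near-identical neighbours may have been split or shared by the counting, so single values within arrays are uncertain to that extent.

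Many members were not detected in these root tips, which held for genes in general. Of all 56962 genes 22624 had enough counts to be tested, a smaller share than the 35 of 66 S8 and 35 of 59 S10 members. Single libraries held 25401 to 27553 genes with any count. Of the 31 untested S8 members 21 had 0 counts in all 6 libraries, and of the 24 untested S10 members 17 did. A count of 0 allows up to 3 counts over a genotype, which corresponds to 0.0525 CPM in the wild type and 0.0549 CPM in the mutant, for counting error only. The other untested members had at most 11 counts in any library among S8 and 7 among S10. The untested members were shorter by deposited gene length, with a median of 2409 against 2809 bases in class S8 and 1434 against 1986 bases in class S10. Arrays on chromosome 2 (9712538 to 9829112), on chromosome 4 (1209884 to 1285100 and 1702003 to 1740998) and on chromosome 11 (15637696 to 15738377) held no tested member at all.

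Calls in other peptidase lists are read against the 24.9% of all tested genes called higher and the 20.3% called lower. Of 39 tested genes of other serine peptidase families 12 rose (30.8%) and 9 fell (23.1%), with a median log2 change of 0.00. This total joins families that differed. Of 16 rhomboid (S54) genes 3 rose (18.8%) and 7 fell (43.8%, median -0.25). Of 12 prolyl oligopeptidase (S9) genes 4 rose and 1 fell (median 0.15), and all 4 tested S28 genes rose (median 0.57). Leans of this kind were therefore not limited to classes S8 and S10. LOC_Os06g11190, a prolyl oligopeptidase, rose from 32.7 ± 1.48 to 84.7 ± 12.4 CPM, and LOC_Os08g43320, a membrane-embedded rhomboid protease, fell from 33.1 ± 4.25 to 16.4 ± 1.06 CPM. Of 73 cysteine peptidase genes 18 rose (24.7%) and 10 fell (13.7%), the median being 0.03. The legumain gene LOC_Os02g43010, of a vacuolar processing enzyme family, rose from 12.97 ± 1.41 to 27.8 ± 1.85 CPM, and the papain-like LOC_Os09g39070 fell from 18.3 ± 7.32 to 7.9 ± 1.88 CPM.

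Of 41 metallopeptidase genes 12 rose (29.3%) and 8 fell (19.5%), the median being 0.09, and the 2 genes named there share the M20 description. LOC_Os12g40550 rose from 81.0 ± 2.05 to 165 ± 14.1 CPM and LOC_Os01g51060 fell from 46.8 ± 3.01 to 13.6 ± 3.18 CPM. Of 9 genes with an aspartic peptidase description 3 rose and 0 fell (median 0.14), and LOC_Os02g57710, described as a signal peptide peptidase (A22B), rose from 45.4 ± 2.37 to 77.8 ± 9.19 CPM.

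Genes for protease inhibitors were higher or uncalled. Of 15 tested 8 rose and 0 fell (median 0.84), and 6 of those 8 were Bowman-Birk inhibitors of serine proteases, of which 8 were tested. LOC_Os01g04050 rose from 7.85 ± 1.38 to 65.2 ± 11.4 CPM. Hormone precursors and pectin methylesterases include known Arabidopsis subtilase substrates. Neither of the 2 tested phytosulfokine precursor genes was called (median 0.03). Of 30 tested genes with a pectinesterase or pectinesterase inhibitor description 10 rose (33.3%) and 8 fell (26.7%), the median being 0.04. The catalytic-domain genes, which are the enzymes themselves, counted 5 higher and 2 lower of 14 (median 0.25). The inhibitor-domain genes counted 5 higher and 6 lower of 16, and their median (-0.79) and mean (0.32) differ in sign. The inhibitor-domain genes LOC_Os05g05640 and LOC_Os01g21034 went in opposite directions, from 4.83 ± 0.514 to 18.4 ± 3.93 CPM and from 12.2 ± 1.94 to 4.97 ± 0.531 CPM. All calls in these lists were made by edgeR's quasi-likelihood test with adjustment over all 22624 genes.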

How the data were processed

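The deposited values are whole-number counts for each gene in each of the 6 samples, made by the authors and taken as not normalized. The same table holds gene lengths, coordinates and domain descriptions. The sources used here do not give the counting tool, strand setting, annotation release or rice build. Bowtie 0.12.2 and mouse builds, which cannot hold rice loci, are named in the submitters' processing notes. Coordinates are as deposited. Each column of counts matched 1 sample by name.

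The tests used edgeR 4.0.16 (R 4.3.3), with an expression filter by group (22624 genes), TMM scaling, a quasi-likelihood model with genotype alone, two-sided tests on 4 residual degrees of freedom before moderation, Benjamini-Hochberg adjustment across the 22624 genes, and calls made below 0.05. Standard errors are the absolute log2 change over the square root of the F statistic. DESeq2 1.42.0 and the other alternatives are in the closing section. The procedure was run on simulated data in which few genes changed, equally in both directions and only among well-counted genes. The real data held far more calls, so that run cannot check the scaling or the scarce genes here. No library repeated another: pairs within a genotype gave a chi-square of at least 9.03 for each degree of freedom, so each was used as its own replicate. Levels are TMM-scaled CPM. The naming rule, the level classes and the shares of a summed level use CPM without regard to gene length. Levels of different genes are otherwise compared per kilobase of deposited length.

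The members and lists were chosen with earlier results of these data known. Genes were named by rule: in each class the 4 highest by mean CPM; among called members without overlap and with at least 5 CPM in the higher genotype, the 6 largest changes in each direction; arrays by range and count, so that array members described singly were otherwise chosen with their values known; members at 0 in 1 genotype with at least 1 CPM in the other, of which there were 0; LOC_Os05g06660; and up to 1 higher and 1 lower gene per list. Intervals and floors cover counting error only, because PCR copies of a molecule are not told apart.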

Additional observations from a re-analysis of the deposited data

How the results depend on the processing

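Class counts, class medians and the tested members were recomputed under 13 alternatives (12 for a pair of called members that a stricter filter removed); other lists, level classes, summed levels and tissue markers were not. S8 members lower in the mutant numbered 9 to 14 and higher 5 to 6, with 9 lower against 6 higher both with library totals and without mutant replicate 3. Over all tested genes these 2 settings gave 3647 lower and 6223 higher of 22624, and 3549 lower and 4773 higher of 22993. S10 members higher numbered 15 to 17 and lower 4 to 6. The S8 median log2 change of -0.34 was -0.40 with upper-quartile factors, -0.25 with library totals and -0.26 with no filter beyond 1 count, and -0.40 to -0.24 with 1 library left out. The S10 median of 0.17 was 0.11 with upper-quartile factors, 0.26 with library totals and 0.13 with the replicate number as a block, and 0.21 to 0.32 with 1 library left out. The change of LOC_Os02g46260 (-0.05, not called) turned to 0.043 with library totals and 0.0031 without mutant replicate 2, and was -0.14 without mutant replicate 1; the cause was not tested. Of 468 values for the 36 genes named singly by rule, which leaves out other array members, 462 kept direction and side of the threshold and 4, all of LOC_Os07g29620, lost the call. Of the called members, 14 of 18 in class S8 and 18 of 22 in class S10 kept their call in every alternative that tested them. Samples share only a number across genotypes: deviations of same-numbered samples correlated at 0.06, 0.13 and -0.03, and wild type replicate 1 correlated best with mutant replicate 3 (0.10). With the replicate block 10648 genes were called in place of 10229, among members 5 higher and 14 lower in class S8 and 16 higher and 6 lower in class S10. Depth limits members below about 1 CPM, where 1 count is worth 0.0514 to 0.0594 CPM.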
